A study of Mus musculus with 22 samples.

Results

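The SLC25 genes encode the mitochondrial solute carriers. Their RNA was measured in a pull-down labelled noradrenergic from the mouse hindbrain, and in the total hindbrain, noradrenergic cells included. Markers of other cell types were present in the pull-down too. Members were all genes whose symbol begins with Slc25a and a number, which gave 37 of the 12596 genes in the table. The other SLC25 genes Slc25a2, Slc25a21, Slc25a24, Slc25a31, Slc25a35, Slc25a41, Slc25a43, Slc25a47, Slc25a48, Slc25a52 and Slc25a54 were not analysed here. Most carriers sit in the inner mitochondrial membrane, where each swaps a metabolite of the cytosol for one of the matrix by opening to one side at a time. They bring in ADP, phosphate, pyruvate-derived and amino acid intermediates and cofactors, and they export ATP and citrate, so respiration and much of biosynthesis run through them. Neurons of the locus coeruleus, the main noradrenergic nucleus, rely on mitochondrial ATP.

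The 11 mice were of C57Bl/6 background and came from a cross of Th-cre with Slc6a2-eGFP/Rpl10a animals. Th-cre drives Cre from a tyrosine hydroxylase promoter, and Slc6a2-eGFP/Rpl10a puts a fluorescent tag on the ribosomes of cells that use the noradrenaline transporter gene. All animals carried this cross, controls included, so no group lacks the transgenes. In 5 animals hTyr (human tyrosinase, an enzyme of pigment synthesis) was infused, and 6 received EYFP, a fluorescent protein, as control. Every animal gave a library of ribosome-bound RNA pulled down by the tag (IP, labelled noradrenergic) and a library of RNA from before the pull-down (input, labelled total hindbrain). The groups were thus EYFP input and EYFP IP with 6 libraries each, and hTyr input and hTyr IP with 5 each. Age is not given in the sources used here.

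Values are log2 CPM, the deposited scale, where CPM is reads scaled to the size of the library and 1 unit is a doubling. The libraries held from 12654489 to 25100142 reads in genes of the table. Members had between 21 and 27173 reads in a library, and 0 of the 37 had fewer than 10 reads in any library. All 9 noradrenergic marker genes were higher in IP in both treatments, from 1.13 log2 units for Ddc to 4.02 for Dbh in EYFP animals. Their summed level was 521 to 1150 CPM in EYFP IP against 128 to 160 CPM in EYFP input, and 656 to 1915 CPM in hTyr IP against 134 to 170 CPM in hTyr input. One EYFP IP library, IP_505 in the labels, stood apart from the other IP libraries. On the first principal component, which held 56.4% of the variance, it lay at -2.4, while the other IP libraries lay between -40.9 and -14.4 and the input libraries between 21.3 and 39.0. IP and input came from bulk material, so fewer cells of a type and less RNA per cell cannot be told apart. IP holds ribosome-bound RNA and input RNA from before the pull-down. A difference in ribosome binding or in the pull-down itself therefore cannot be told apart from these either.

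Per kilobase of transcript, the ADP/ATP carrier Slc25a4, the phosphate carrier Slc25a3 and the second ADP/ATP carrier Slc25a5 had the highest levels in all 4 groups. Levels between genes are compared only on this scale, CPM divided by the length of the longest principal transcript. In EYFP IP, Slc25a4 averaged 681 ± 60.1 CPM per kilobase (SD, n = 6), Slc25a3 473 ± 55.5 and Slc25a5 328 ± 35.0. Their ranges over libraries did not overlap with each other in that group. The next member was Slc25a11, the oxoglutarate/malate carrier, at 98.4 ± 6.02 CPM per kilobase, and its range of 91.2 to 106 overlapped that of Slc25a39, a glutathione carrier, at 74.98 to 99.9. In EYFP input the order was Slc25a4 at 492 ± 51.8, Slc25a3 at 350 ± 22.8, Slc25a5 at 224 ± 21.2 and Slc25a23, a calcium-regulated ATP-Mg/phosphate carrier, at 156 ± 23.2 CPM per kilobase (SD, n = 6). There the ranges of Slc25a5 (183 to 239) and Slc25a23 (133 to 192) overlapped. In EYFP IP, Slc25a23 ranked sixth by the same measure, at 72.6 ± 22.7 CPM per kilobase.

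**Figure D1:**
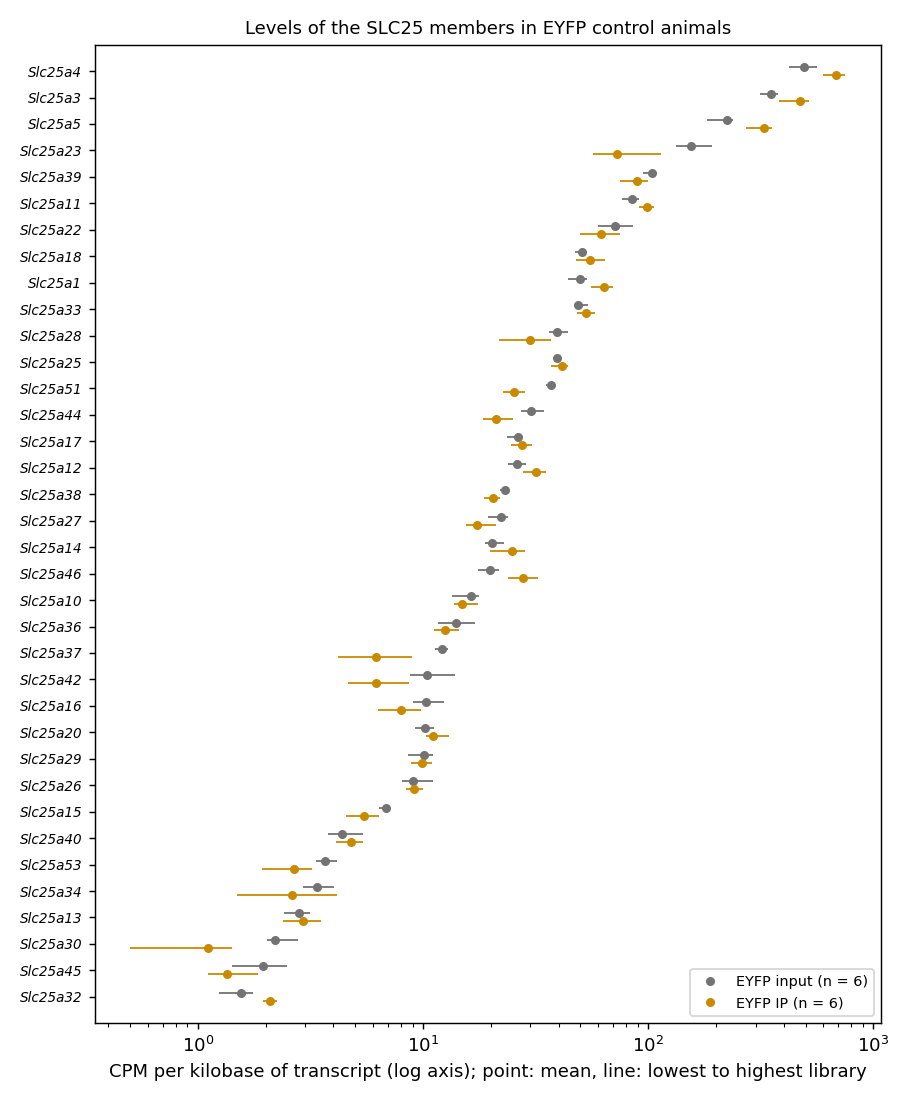
Level of 36 of the 37 members in the control animals, in CPM per kilobase of transcript on a log axis, with the mean as a point and the lowest to highest library as a line (EYFP input in grey, EYFP IP in orange, n = 6 each). Slc25a4, Slc25a3 and Slc25a5 lie at the top in both kinds of library, and Slc25a23 is the member near the top that lies furthest to the left in IP, at 72.6 against 156 CPM per kilobase.

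At the low end of the plot of levels were Slc25a32, Slc25a45 and Slc25a30, each between 1.11 and 2.21 CPM per kilobase on average in both EYFP groups. Slc25a4, Slc25a5 and Slc25a3 together made up 62.6% ± 3.24 of the summed per-kilobase level of the family in EYFP IP (SD, n = 6) and 51.7% ± 2.74 in EYFP input. In hTyr animals they made up 63.1% ± 2.39 in IP and 51.4% ± 2.83 in input (SD, n = 5). The lowest IP library of either treatment (57.2%) lay above every input library but did so narrowly, the highest input library being at 56.0%. The summed level of all 37 members was 4748 ± 166 CPM in EYFP IP, 4432 ± 106 in EYFP input, 4749 ± 84.7 in hTyr IP and 4461 ± 186 in hTyr input. When lengths were taken from the union of all annotated exons, Slc25a5 ranked above Slc25a3 and the 3-gene share in EYFP IP was 60.2%. Slc25a4 stood at 2.08 ± 0.0820 times Slc25a5 per kilobase in EYFP IP and at 2.20 ± 0.136 times in EYFP input, so the ratio of the ADP/ATP carriers was close in both kinds of RNA. Slc25a5 has an annotated pseudogene, Slc25a5-ps, and reads of near-identical copies could have been split in the counting.

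The first comparison asked how the ribosome-bound RNA pulled down by the tag differed from the total hindbrain RNA of the input. The pull-down also held RNA of other cell types, whose markers are given below. Input was taken before the pull-down and so includes the tagged cells. In EYFP animals 24 of 37 members passed the threshold, 9 of them higher in IP and 15 lower, and 13 did not pass. Over all genes tested 56.5% passed, 28.5% higher and 28.1% lower. The members' median difference was -0.13 log2 units, and that of all genes was -0.03. In hTyr animals 22 of 37 members passed, 8 higher and 14 lower, against 54.4% of all genes (27.4% higher and 27.0% lower). There the median difference was -0.20 for the members and -0.04 for all genes. The values of IP and input did not overlap for 17 of 37 members in EYFP animals, where 30.1% of all genes did not overlap, and for 19 of 37 in hTyr animals, where 37.5% did not. With both directions counted together, the share of members that passed was close to the share of all genes. The shares of members that passed lower or did not overlap were above those of all genes. The share that passed higher was below it, and none of these was tested. Without the EYFP IP library that stood apart and its input, 24 members again passed, 9 higher and 15 lower, no member's call changed, and the median difference was -0.09.

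**Figure D2:**
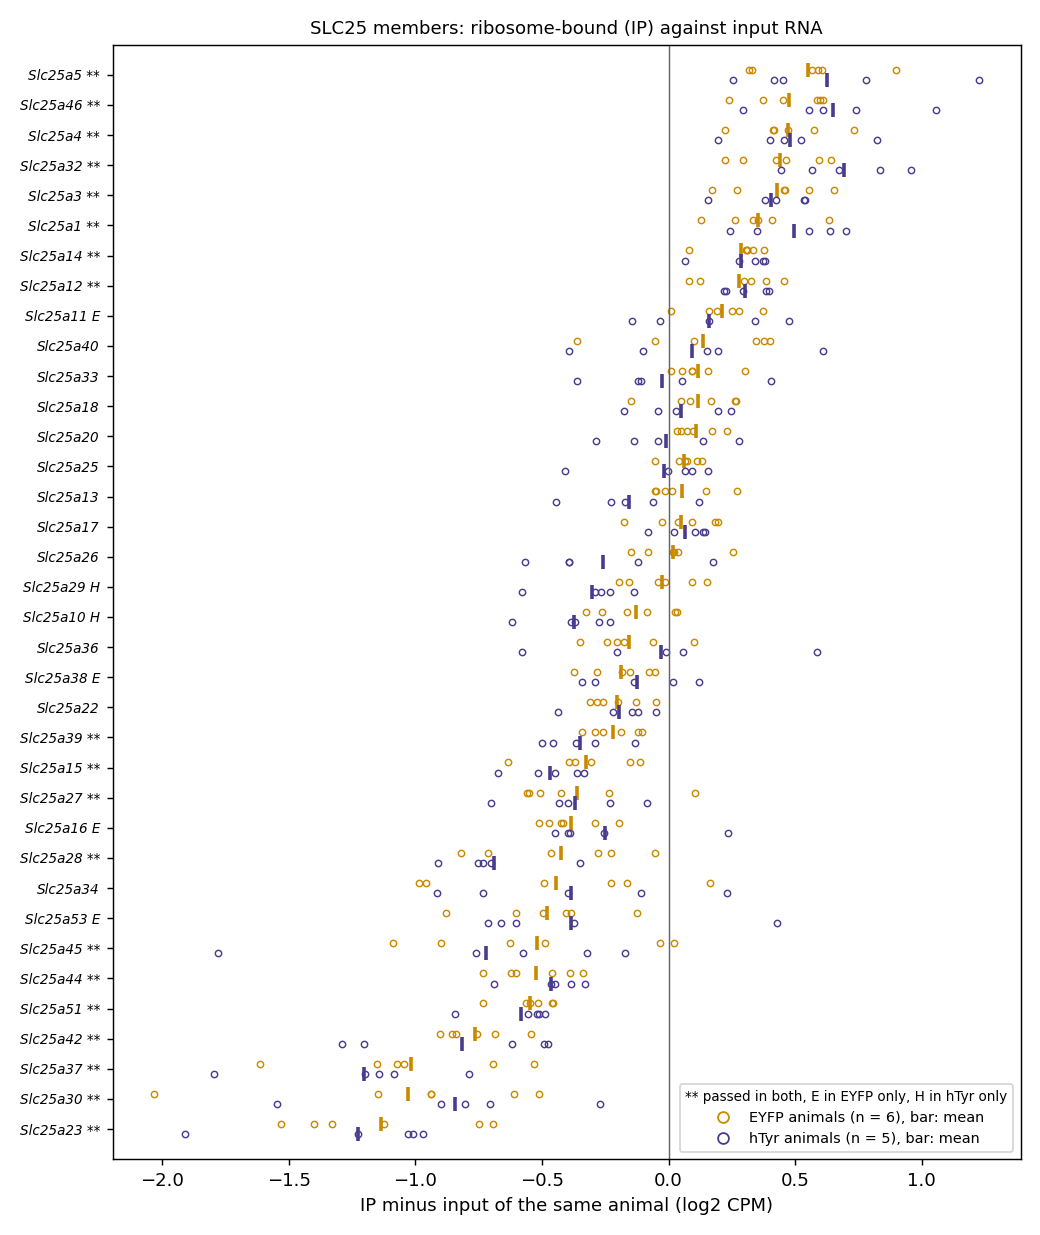
IP minus input within each animal for 36 of the 37 members, in log2 CPM, with 1 circle per animal (EYFP in orange, n = 6, hTyr in purple, n = 5) and a bar for the mean. Members are ordered by their mean in EYFP animals, from Slc25a5 at 0.55 to Slc25a23 at -1.14, and the mark after a name tells in which treatment it passed the threshold.

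In both treatments the same 8 members were higher in IP, namely Slc25a1, Slc25a3, Slc25a4, Slc25a5, Slc25a12, Slc25a14, Slc25a32 and Slc25a46. The 12 members lower in both included Slc25a15, Slc25a23, Slc25a27, Slc25a28, Slc25a30, Slc25a37, Slc25a39, Slc25a42, Slc25a44, Slc25a45 and Slc25a51. No member passed in opposite directions, 4 passed in EYFP animals alone, 2 in hTyr animals alone and 11 in neither. The plot of differences by animal shows the circles of the upper 8 members to the right of 0 in all 11 animals.

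The carriers of ADP, ATP and phosphate, the substrates and product of ATP synthase, were higher in IP. Slc25a5, on chromosome X (mm10, 36795651 to 36798807), had input values of 7.83, 8.18 and 8.21 log2 CPM (lowest, median, highest) and IP values of 8.41, 8.75 and 8.78 in EYFP animals. In hTyr animals its input values were 8.32, 8.18, 7.85, 7.77 and 8.32 and its IP values 8.58, 8.63, 8.63, 8.99 and 8.74, in the order of the animals labelled IP_501, IP_502, IP_508, IP_509 and IP_510. Every IP library lay above every input library of its treatment. The difference was 0.55 ± 0.08 log2 units (SE), or 1.47-fold, in EYFP animals (limma adjusted p = 5.64e-05) and 0.63 ± 0.12, or 1.54-fold, in hTyr animals (limma adjusted p = 0.000266).

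Slc25a4, on chromosome 8 (mm10, 46206797 to 46211284), is the ADP/ATP carrier best known from muscle and brain. Its values in EYFP animals were 9.66, 9.89 and 10.08 log2 CPM in input and 10.17, 10.39 and 10.50 in IP (lowest, median, highest). In hTyr animals they were 9.90, 9.91, 9.78, 9.73 and 10.10 in input and 10.35, 10.31, 10.30, 10.55 and 10.30 in IP, in the same order of animals. The groups did not overlap in either treatment. It rose by 0.47 ± 0.08 log2 units (SE) in EYFP animals (1.39-fold, limma adjusted p = 0.000217) and by 0.48 ± 0.09 in hTyr animals (1.39-fold, limma adjusted p = 0.000346). The phosphate carrier Slc25a3 rose by 0.43 ± 0.08 in EYFP animals (limma adjusted p = 0.000416) and by 0.41 ± 0.08 in hTyr animals (limma adjusted p = 0.000675). With the dependence of each library on transcript length and base composition (GC content) removed, Slc25a3 was at 0.26 in EYFP animals (limma adjusted p = 0.00426) and no longer passed in hTyr animals, at 0.15 (limma adjusted p = 0.195). Under quantile normalization Slc25a4 was at 0.308 in EYFP animals.

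The other carriers of adenine nucleotides went the other way or did not pass. Slc25a23, on chromosome 17 (mm10, 57043711 to 57059863), exchanges ATP-Mg for phosphate when cytosolic calcium rises, and it had the largest fall of the family. In EYFP animals it was at 8.80, 8.96 and 9.33 log2 CPM in input and at 7.58, 7.68 and 8.58 in IP. In hTyr animals it was at 8.97, 9.08, 9.09, 9.25 and 8.52 in input and at 7.74, 8.07, 8.06, 7.34 and 7.55 in IP. No IP library reached the lowest input library of its treatment, and the highest EYFP IP value was that of IP_505. It fell by 1.14 ± 0.15 log2 units (SE) in EYFP animals, to a level 2.20-fold lower (limma adjusted p = 1.60e-05). In hTyr animals it fell by 1.23 ± 0.15, 2.34-fold (limma adjusted p = 3.15e-06), and in EYFP animals without IP_505 and its input the difference was -1.215. Its relative Slc25a25 did not pass, at 0.06 and -0.02 log2 units in EYFP and hTyr animals.

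Both mitoferrins, which carry iron into the matrix for heme and iron-sulfur clusters, fell in both treatments. Slc25a37, mitoferrin 1, on chromosome 14 (mm10, 69241848 to 69285112), was at 5.57, 5.69 and 5.75 log2 CPM in EYFP input and at 4.14, 4.60 and 5.22 in EYFP IP. In hTyr animals it was at 5.60, 5.76, 5.95, 5.69 and 5.33 in input and at 4.81, 4.56, 4.80, 3.89 and 4.24 in IP. The groups did not overlap, and the highest EYFP IP value was again that of IP_505. Slc25a37 fell by 1.02 ± 0.14 log2 units (SE) in EYFP animals (2.03-fold lower, limma adjusted p = 1.65e-05) and by 1.20 ± 0.16 in hTyr animals (2.30-fold lower, limma adjusted p = 9.995e-06). Slc25a28, mitoferrin 2, fell by 0.43 ± 0.12 (limma adjusted p = 0.00498) and by 0.69 ± 0.11 (limma adjusted p = 8.83e-05). Its EYFP groups overlapped and its hTyr groups did not.

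Among 9 carriers of nucleotides and cofactors, 1 rose and 4 fell in EYFP animals and 1 rose and 3 fell in hTyr animals. The one that rose, Slc25a32, on chromosome 15 (mm10, 39091231 to 39112716), carries folate or FAD into the matrix. Its input values were 2.90, 3.27 and 3.40 log2 CPM and its IP values 3.54, 3.65 and 3.74 in EYFP animals. In hTyr animals its input values were 2.90, 3.16, 3.004, 3.47 and 3.24 and its IP values 3.74, 3.72, 3.96, 3.91 and 3.91. Every IP value lay above every input value. The rise was 0.44 ± 0.10 log2 units (SE, 1.36-fold, limma adjusted p = 0.00173) in EYFP animals and 0.69 ± 0.13 (1.62-fold, limma adjusted p = 0.000342) in hTyr animals. With the trend on length and GC content removed Slc25a32 was at 0.17 in EYFP animals and did not pass (limma adjusted p = 0.102), and at 0.29 in hTyr animals, where it passed (limma adjusted p = 0.0389).

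Slc25a42, on chromosome 8 (mm10, 70184340 to 70212305), carries coenzyme A into mitochondria. It was at 4.81, 5.04 and 5.48 log2 CPM in EYFP input and at 3.90, 4.26 and 4.80 in EYFP IP. In hTyr animals it was at 5.23, 5.13, 5.11, 5.17 and 4.96 in input and at 3.94, 4.51, 4.61, 3.96 and 4.49 in IP. The groups did not overlap, although the highest EYFP IP library (IP_505) came within reach of the lowest input library. It fell by 0.76 ± 0.13 (SE, 1.70-fold lower, limma adjusted p = 0.000180) and by 0.82 ± 0.13 (1.76-fold lower, limma adjusted p = 7.75e-05) in EYFP and hTyr animals. Slc25a51, the NAD+ carrier, fell by 0.55 ± 0.06 and 0.58 ± 0.09 log2 units. Slc25a16, linked to coenzyme A transport, passed in EYFP animals alone (-0.39, and -0.25 in hTyr animals). Slc25a17 (a peroxisomal cofactor carrier), Slc25a26 (S-adenosylmethionine) and the pyrimidine nucleotide carriers Slc25a33 and Slc25a36 passed in neither treatment. Slc25a36 was at -0.15 in EYFP animals, where it passed with the animal as a block (limma adjusted p = 0.0476). With the trend removed, Slc25a36 was lower in IP in both treatments, at -0.50 and -0.51 log2 units (limma adjusted p = 7.77e-05 and 0.000443).

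The uncoupling-protein-like carriers divided, with 1 higher and 2 lower in both treatments. Slc25a30, on chromosome 14 (mm10, 75760117 to 75787037), had input values of 2.89, 2.93 and 3.33 log2 CPM and IP values of 0.93, 2.12 and 2.38 in EYFP animals. In hTyr animals its input values were 3.08, 3.23, 3.10, 3.28 and 3.30 and its IP values 2.37, 2.96, 1.56, 2.48 and 2.40. The groups did not overlap, and the IP values of this low gene spread more widely than its input values. It fell by 1.03 ± 0.20 (SE, 2.04-fold lower, limma adjusted p = 0.000506) in EYFP animals and by 0.84 ± 0.21 (1.80-fold lower, limma adjusted p = 0.00287) in hTyr animals, where the deposited pseudocount understates the change of low genes. With a pseudocount of 5 CPM the differences of Slc25a30 were -0.531 and -0.475. Slc25a27 fell by 0.36 ± 0.09 and 0.37 ± 0.09 log2 units. Slc25a14 rose by 0.29 ± 0.08 and 0.29 ± 0.09. Of the uncoupling proteins under other symbols, Ucp2 differed by -0.66 and -0.71 and passed in both treatments, and Ucp3 differed by -0.36 and -0.35 and passed in EYFP animals alone.

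**Figure D3:**
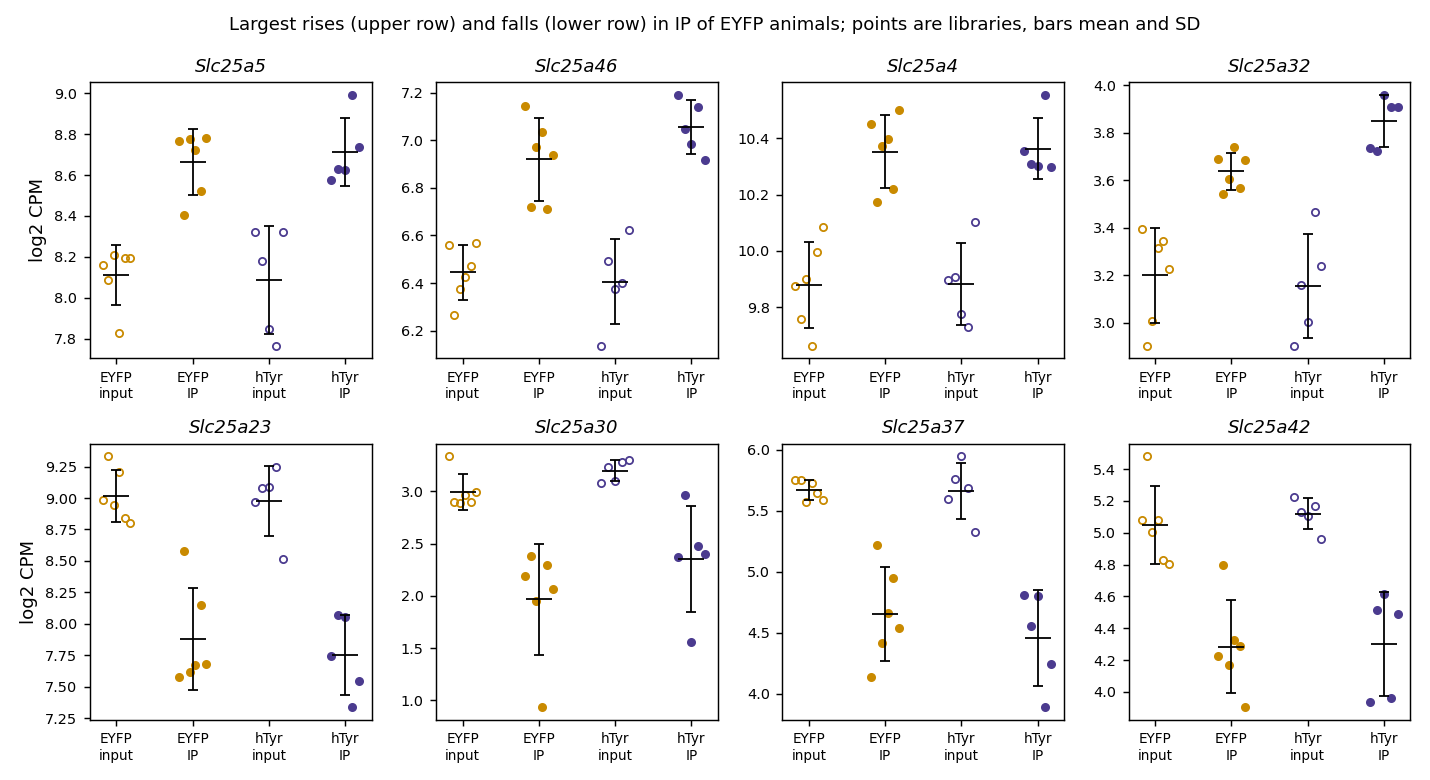
Log2 CPM of the 4 members with the largest rises (upper row) and the 4 with the largest falls (lower row) in IP of EYFP animals, with 1 point per library and the mean and SD as bars (EYFP n = 6, hTyr n = 5, input open, IP filled). IP and input do not overlap in any panel, and the EYFP and hTyr libraries of one kind overlap in all of them.

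Slc25a46 is an exception in the family because it sits in the outer membrane, where it takes part in fission, cristae upkeep and lipid transfer. It was at 6.27, 6.45 and 6.57 log2 CPM in EYFP input and at 6.71, 6.96 and 7.14 in EYFP IP. In hTyr animals it was at 6.14, 6.49, 6.38, 6.40 and 6.62 in input and at 7.19, 7.05, 6.98, 7.14 and 6.92 in IP. All IP values exceeded all input values. The rise was 0.48 ± 0.08 log2 units (SE, 1.39-fold, limma adjusted p = 0.000154) in EYFP animals and 0.65 ± 0.09 (1.57-fold, limma adjusted p = 2.28e-05) in hTyr animals. With the trend on length and GC content removed, Slc25a46 still passed, at a smaller rise of 0.20 and 0.24 log2 units (limma adjusted p = 0.00643 and 0.0111).

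Among the carriers of the malate-aspartate shuttle and its neighbours, Slc25a12 (aralar, the aspartate/glutamate carrier of neurons) rose by 0.28 ± 0.07 and 0.30 ± 0.08 log2 units in EYFP and hTyr animals. Its close relative Slc25a13 and the glutamate carriers Slc25a18 and Slc25a22 passed in neither treatment. Slc25a22 was lower in IP in 6 of 6 EYFP and 5 of 5 hTyr animals, at -0.20 in each, and passed once the animal was a block (limma adjusted p = 0.00518 and 0.0378). That fall was gone with the trend on length and GC content removed. Slc25a22 was then at 0.02 in EYFP and 0.12 in hTyr animals and did not pass (limma adjusted p = 0.864 and 0.2). Slc25a11, which swaps oxoglutarate for malate, was 0.21 ± 0.06 higher in EYFP animals (limma adjusted p = 0.00951) and differed by 0.16 ± 0.09 in hTyr animals (limma adjusted p = 0.156). Without the animal of IP_512, Slc25a11 did not pass (limma adjusted p = 0.0516). Slc25a11 shares 189 exonic bases with Rnf167 on the opposite strand, and whether counting used strand is not given in the sources used here. Other members share exonic bases with opposite-strand genes as well. Among them are Slc25a46 (383 bases), Slc25a37 (381 and 92), Slc25a23 (168) and Slc25a26 (144, with Lrig1). The citrate carrier Slc25a1 rose by 0.35 ± 0.07 and 0.50 ± 0.12 log2 units. The dicarboxylate carrier Slc25a10 passed in hTyr animals alone, at -0.38 ± 0.09 against -0.13 ± 0.08 in EYFP animals.

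Of 4 amino acid carriers outside that shuttle, 3 passed lower and 0 higher in each treatment. Over all genes 28.1% passed lower in EYFP and 27.0% in hTyr animals, and the difference in share was not tested. Slc25a44, which brings branched-chain amino acids into the matrix, fell by 0.52 ± 0.08 and 0.46 ± 0.10 log2 units. Slc25a15, the ornithine/citrulline carrier, fell by 0.33 ± 0.09 and 0.47 ± 0.10. Slc25a38, a glycine carrier needed for heme synthesis, passed in EYFP animals alone (-0.19), and Slc25a29, a carrier of basic amino acids, in hTyr animals alone (-0.30). Slc25a38 and Slc25a29 passed in neither treatment once the trend on length and GC content was removed. Slc25a39 fell by 0.22 ± 0.07 and 0.35 ± 0.10, while Slc25a40, the other glutathione carrier, was at 0.14 and 0.09 and did not pass. With the trend on length and GC content removed, Slc25a39 passed in neither treatment (-0.05 and -0.09), and Slc25a40 was at -0.26 and -0.46 and passed in both (limma adjusted p = 0.0406 and 0.00865). The acylcarnitine carrier Slc25a20, for fatty acid oxidation, passed in neither. Of 3 members with substrates that are unknown or unsure, Slc25a45 fell in both treatments, Slc25a53 in EYFP animals alone, and Slc25a34 differed by -0.44 and -0.39 without passing. With the animal as a block, Slc25a34 passed in EYFP animals (limma adjusted p = 0.0115).

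The stretch upstream of the start is shown for 1 of the 4 members with the largest rises and 2 of the 4 with the largest falls in EYFP animals, because these part widely between IP and input and no annotated exon covers the 250 bases. Sequences are from RefSeq (GRCm38.p6), 5′ to 3′ on the gene's strand, ending just before the start that RefSeq gives. Capitals mark matches on either strand to the letters GGGCGG, the binding motif of Sp1-type factors, or to CCAAT, the binding motif of the factor NF-Y, and 0 matches overlapped. Another motif, AAGGTCA of the estrogen-related receptors, was searched too and does not occur in these windows.

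Slc25a5, chrX:36795347-36795596, plus strand: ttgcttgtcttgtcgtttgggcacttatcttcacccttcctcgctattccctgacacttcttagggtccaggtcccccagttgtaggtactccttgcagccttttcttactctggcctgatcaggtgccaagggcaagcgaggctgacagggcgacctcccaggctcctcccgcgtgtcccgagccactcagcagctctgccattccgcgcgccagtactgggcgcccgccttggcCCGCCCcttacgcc

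Slc25a23, chr17:57059864-57060113, minus strand: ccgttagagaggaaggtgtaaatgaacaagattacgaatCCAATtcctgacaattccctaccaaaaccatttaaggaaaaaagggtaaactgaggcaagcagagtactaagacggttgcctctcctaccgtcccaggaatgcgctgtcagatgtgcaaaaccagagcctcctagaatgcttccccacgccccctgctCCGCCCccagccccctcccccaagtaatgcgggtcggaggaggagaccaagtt

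Slc25a30, chr14:75787038-75787287, minus strand: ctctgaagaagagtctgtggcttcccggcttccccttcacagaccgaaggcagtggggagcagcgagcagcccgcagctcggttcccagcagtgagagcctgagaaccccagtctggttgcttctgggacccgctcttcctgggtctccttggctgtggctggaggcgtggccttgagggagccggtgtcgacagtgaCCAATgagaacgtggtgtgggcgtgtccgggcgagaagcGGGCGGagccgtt

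Slc25a5, the riser, holds 1 match to GGGCGG and 0 to CCAAT, and the fallers Slc25a23 and Slc25a30 hold 1 of each. A RefSeq window was matched for 29 of the 37 members, using the first start listed per gene. GGGCGG occurred in 21 of 29 members against 32.9% of 27025 promoters of the same length, and CCAAT in 14 of 29 against 34.5%. Those promoters belong to all genes listed, in the table of values or not. The share among the genes of that table was not computed. Of the members higher in IP in both treatments, 3 of 6 windows held GGGCGG, and of those lower in both, 7 of 7 did. CCAAT was in 2 of 6 and 4 of 7. These counts include windows that annotated exons overlap. The window of Slc25a4, a riser with CCAAT and without GGGCGG, has 222 exonic bases of 250. That of Slc25a42, a faller with both motifs, has 24. AAGGTCA was in 1 of 29, against 4.05% of all promoters. These matches describe letters only.

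Base composition was read beside the IP differences, with no test between the members that rose and those that fell. The 8 members higher in both treatments had a median exonic GC content of 47.1% (40.7 to 59.1), and the 12 lower in both 53.5% (45.4 to 59.7), so the ranges overlapped over most of their length. Across 12105 genes, which are not independent replicates and share these libraries, the IP difference had a Spearman correlation with GC content of -0.34 in EYFP and -0.44 in hTyr animals. Over the 37 members the values were -0.23 and -0.31, and the correlation with length was -0.24 and -0.17. With the trend on length and GC content removed, 23 members passed in EYFP animals (9 higher, 14 lower) and 22 in hTyr animals (9 higher, 13 lower), and the median differences moved to -0.02 and -0.06. Slc25a4, Slc25a5, Slc25a23, Slc25a30 and Slc25a37 passed in both treatments under this setting as well and moved by less than 1.5 times. Slc25a42 passed too, at -0.57 in EYFP and -0.54 in hTyr animals, as did Slc25a12, at 0.21 and 0.19. Some calls were lost with little left of the difference. In hTyr animals Slc25a10 went to -0.06 (limma adjusted p = 0.531) and Slc25a29 to -0.03 (limma adjusted p = 0.783), and in EYFP animals Slc25a38 went to -0.08 (limma adjusted p = 0.224). Slc25a45 kept most of its difference in hTyr animals, at -0.59, and missed the threshold (limma adjusted p = 0.0755). Calls gained in EYFP animals were those of Slc25a33, Slc25a36 and Slc25a40, with Slc25a33 at 0.17. In hTyr animals Slc25a11 (0.28), Slc25a16 (-0.51), Slc25a18 (0.16) and Slc25a53 (-0.78) passed, as did Slc25a36 and Slc25a40, and Slc25a53 was at -0.75 in EYFP animals.

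Genes around the carriers were read from lists, with no test of a list. Over all genes 28.5% passed higher and 28.1% lower in EYFP animals, and 27.4% and 27.0% in hTyr animals. Of 7 enzymes of the malate-aspartate and glycerol phosphate shuttles, 5 were higher in IP and 0 lower in both treatments, with a median of 0.58 and 0.63 log2 units. Mdh1, cytosolic malate dehydrogenase, rose by 1.09 and 1.23, and Got2, the mitochondrial aspartate aminotransferase, by 0.66 in each. Of 20 other mitochondrial transporters and channels, 9 were higher and 7 lower in EYFP animals and 9 higher and 3 lower in hTyr animals. There the outer membrane channel Vdac3 rose by 0.82 and 0.96 log2 units. Sfxn3, a sideroflexin, fell by 0.58 and 0.60. Of 9 genes for import of carriers, 2 were higher and 2 lower in EYFP animals and 2 higher and 1 lower in hTyr animals, with Tomm70a, the receptor that binds carrier precursors, at 0.51 and 0.80. Of 4 family members under other symbols, 1 was higher and 2 lower in EYFP animals, and 0 higher and 1 lower in hTyr animals.

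Markers of other cell types were present in every IP library, and every gene of these lists had at least 41 reads in each library. The shares of all genes that passed, given just above, are the background for these counts as well. Of 8 astrocyte markers, 4 were higher and 1 lower in IP in EYFP animals and 5 higher and 1 lower in hTyr animals. Their sum was 3029 to 4346 CPM in EYFP IP against 2658 to 3221 in EYFP input, and 3313 to 4167 in hTyr IP against 2731 to 3417 in hTyr input. Of 8 oligodendrocyte markers, 1 was higher and 4 lower in EYFP animals and 2 higher and 4 lower in hTyr animals. Their sum was 6143 to 7888 CPM in EYFP IP against 6598 to 8694 in EYFP input, and 6001 to 8401 in hTyr IP against 7400 to 9188 in hTyr input. Of 9 markers of other neurons, 7 were higher and 0 lower in EYFP animals and 6 higher and 0 lower in hTyr animals, with sums of 1228 to 1528 CPM in EYFP IP, 869 to 1148 in EYFP input, 1115 to 1429 in hTyr IP and 845 to 1065 in hTyr input. Of 8 microglial markers, 0 were higher and 1 lower in EYFP animals and 2 higher and 1 lower in hTyr animals. Of 4 endothelial markers, 0 changed in EYFP animals and 2 were higher in hTyr animals. Their summed levels lay between 180 and 364 CPM and between 21.5 and 51.2 CPM over the 4 groups. What part these cells have in the differences of the SLC25 members was not tested.

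The second comparison asked whether hTyr changed the family. In IP, 0 of 37 members passed between hTyr and EYFP animals with limma, and 0 with voom on the recovered reads, where limma called 0.0556% of all genes. Before adjustment, 2 members had a p under 0.05, against 6.19% of all genes. The differences of the members ran from -0.25 (Slc25a13) to 0.39 (Slc25a30) log2 units, with a median of 0.00, and the lowest adjusted p was 0.791 (limma). The 95% interval of the difference lay within 0.5 log2 units of 0 for 30 of 37 members and within 1 unit for 37 of 37. The widest interval was that of Slc25a30, which reached 0.98.

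Slc25a29 had the smallest unadjusted p in IP. Its values were 4.139, 4.273 and 4.444 log2 CPM in EYFP IP (lowest, median, highest) and 4.133, 3.916, 4.086, 4.135 and 4.031 in hTyr IP. The groups did not overlap, which held for 0.651% of all genes, but the highest hTyr value lay just under the lowest EYFP value. The difference was -0.23 ± 0.10 log2 units (SE, 95% interval -0.44 to -0.02, limma unadjusted p = 0.0349, adjusted p = 0.791). Slc25a1 had 6.53, 6.75 and 6.87 in EYFP IP and 7.33, 7.09, 6.72, 6.82 and 6.82 in hTyr IP, and the groups overlapped. Its difference was 0.22 ± 0.11 (95% interval 0.00 to 0.45, limma unadjusted p = 0.0490, adjusted p = 0.803). Slc25a32, with the values given above, differed by 0.21 ± 0.10 (95% interval -0.01 to 0.43, limma unadjusted p = 0.0580, adjusted p = 0.803). Without IP_505 the differences were -0.22, 0.23 and 0.19 and none passed.

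In input, 0 of 37 members passed with limma or with voom, and limma called 0.00794% of all genes. Before adjustment, 1 member had a p under 0.05, against 3.03% of all genes. Differences ran from -0.09 to 0.20 log2 units, and the 95% interval lay within 0.5 units for 37 of 37 members. Slc25a10 was at 4.78, 5.08 and 5.17 log2 CPM in EYFP input and at 5.34, 5.20, 5.15, 5.25 and 5.17 in hTyr input, so that the groups overlapped. It differed by 0.18 ± 0.08 (SE, limma unadjusted p = 0.0306, adjusted p = 0.990). Slc25a30, with the input values given above, differed by 0.20 ± 0.11 (limma adjusted p = 0.990). Slc25a38 was at 5.304, 5.378 and 5.435 in EYFP input and at 5.618, 5.478, 5.437, 5.441 and 5.447 in hTyr input. Its groups did not overlap, as for 0.175% of all genes, and it differed by 0.10 ± 0.06 (limma adjusted p = 0.990).

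**Figure D4:**
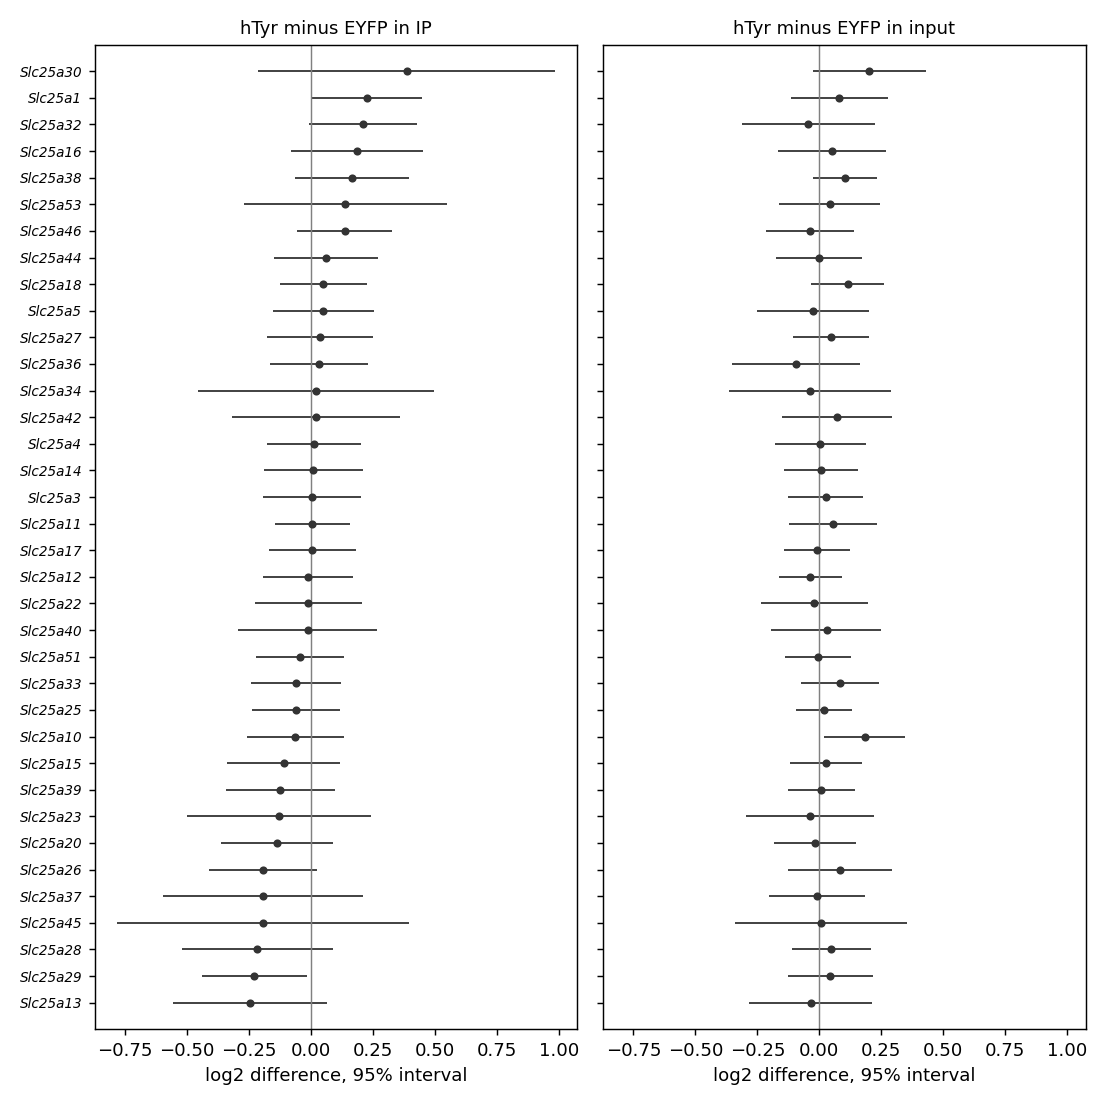
Difference between hTyr and EYFP animals for 36 of the 37 members in IP (left) and input (right), in log2 units, with the 95% interval as a line (n = 5 and 6 libraries). Over all 37 members the interval is wider in IP than in input for 33, with a median width of 0.431 against 0.354 log2 units, and 30 lie within 0.5 units of 0 in IP and 37 in input.

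The difference between the IP effects of hTyr and EYFP animals was tested directly as an interaction. With limma 0 of 37 members passed, with voom 0, and limma called 0.00794% of all genes. Before adjustment, 2 members had a p under 0.05, against 3.31% of all genes: Slc25a29 at -0.27 ± 0.12 and Slc25a10 at -0.25 ± 0.12 log2 units (SE, limma adjusted p = 0.996 for both). These are also the members that passed for IP against input in hTyr animals alone, and the test of the difference did not pass for either. The 95% interval of the interaction lay within 0.5 units for 26 of 37 members and within 1 unit for 37 of 37. For the members with the largest rise and fall in EYFP animals it ran from -0.23 to 0.38 for Slc25a5 and from -0.57 to 0.39 for Slc25a23. As the plot of treatment differences shows for IP, the precision was lowest for low genes such as Slc25a30 and Slc25a45.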

How the data were processed

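RNA sequencing of 22 libraries from 11 mice was used, IP and input of each animal. Per the submitters' processing notes, STAR, featureCounts and the mm10 build were used; versions, strand setting, filter and normalization are not given in the sources used here. The authors deposited log2 values for 12596 genes; the back-transformed values summed to 972556 to 1040933 per library, and 100% came out as whole reads within 0.05, with a mean pseudocount of 1.95 reads, so the values are log2 CPM. Read totals speak of counting error only.

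Tests used limma 3.58.1 (R 4.3.3; lmFit, then eBayes with a trend) on the log2 table as deposited, with p-values adjusted by Benjamini-Hochberg over all 12596 genes, threshold 0.05. IP was compared with input within each treatment, hTyr with EYFP within each kind of library, and the interaction over all 22. Nothing in the labels says more of the replicates than the animal number. For hTyr against EYFP within a kind of library, p-values measure the spread between these animals. For IP against input and the interaction, the main fit took the libraries of an animal as separate. There p-values measure the spread between libraries. IP and input share the animal, from the titles. Over all genes of the table, deviations from the group means correlated between IP and input at a mean r of 0.448 within animals (0.279 to 0.626, 11 animals). Between animals of one treatment the mean r was -0.096. Centring each group on its mean forces a value near this one, so it is not separate evidence of pairing. The main fit has no animal block.

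Lengths and GC content came from GENCODE (GRCm38, the build of mm10), with a value for 12105 genes (96.1%). Full values were given to the 4 members with the largest rise and the 4 with the largest fall in EYFP animals among those past the threshold in both treatments, the 3 with the smallest p in each treatment comparison, and Slc25a4 and Slc25a5. The members and lists were chosen with earlier results of these data known. Alternatives were quantile normalization, a flat prior variance, median centring, a pseudocount of 5 CPM, keeping 75% of genes by expression, sample weights, one shared spread, voom on recovered reads, removal of each library's length and GC trend (loess, span 0.4), the animal block, and leaving out each animal. Union exon lengths were added after seeing the data. The fits were tested on simulated data. Figures were drawn with Python 3.11.15. Some items are counted in the totals but not reported by name here.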

Additional observations from a re-analysis of the deposited data

Results flagged for a closer look

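In 10 of 148 sets of values (37 members in 4 groups), 1 library lay far from the others of its group by Dixon's test, where chance gives about 1 in 20, or 7.4. They fell in 7 libraries, and 0 in IP_505. Among the adenine nucleotide carriers, Slc25a4 was highest in hTyr IP (IP_509) at 10.554 log2 CPM (next 10.353), and Slc25a5 was lowest in EYFP input (Pre_507) at 7.827 (next 8.089). Slc25a30 was lowest in EYFP IP (IP_507) at 0.934 (next 1.95) and highest in EYFP input (Pre_504) at 3.335 (next 2.998). In EYFP IP, Slc25a10 at 5.152 and Slc25a20 at 4.553 were highest in IP_512, and in EYFP input Slc25a26 at 4.424 was highest in Pre_512 of the same animal. In hTyr input (Pre_501), Slc25a13 was lowest at 2.768 and Slc25a38 highest at 5.618. Slc25a27 was lowest in hTyr IP (IP_509) at 5.442. No cause was tested.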

How the results depend on the processing

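Of the members that passed for IP against input, 18 of 24 in EYFP and 16 of 22 in hTyr animals passed under every alternative run, and 0 reversed. With the length and GC trend removed, the median difference moved to -0.019 in EYFP and -0.062 in hTyr animals, and the cause was not tested. Adding the replicate block cannot change a difference of IP against input, because every animal gave 1 library of each kind. The block bears only on the error of the difference. With the replicate block alone (IP and input paired by animal), 27 members passed in EYFP animals (9 higher, 18 lower) and 23 in hTyr animals (8 higher, 15 lower): Slc25a22, Slc25a34 and Slc25a36 were gained in EYFP animals and Slc25a22 in hTyr animals, and the interaction had 0. Leaving out 1 animal gave 22 to 24 members (8 to 9 higher, 13 to 15 lower) with a median of -0.146 to -0.09 in EYFP animals, and 19 to 23 (8 higher, 11 to 15 lower) with a median of -0.227 to -0.187 in hTyr animals. Calls lost without 1 animal, named by its IP library, included those of Slc25a11 (IP_512), Slc25a39 (IP_506, IP_507), Slc25a45 (IP_506, IP_512) and Slc25a38 (IP_504, IP_507) in EYFP animals, and of Slc25a29 (IP_502) and Slc25a45 (IP_502, IP_508, IP_509) in hTyr animals. Between treatments and for the interaction, 0 members passed under any of these, with medians of -0.022 to 0.008 in IP, 0.01 to 0.04 in input and -0.044 to -0.001 for the interaction. Median centring gave 8 higher and 19 lower in hTyr animals. Under union exon lengths the share of Slc25a4, Slc25a5 and Slc25a3 in hTyr IP was 60.6%. Depth limits the low members most, Slc25a30 with 31 reads in its lowest EYFP IP library.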
